A study of Homo sapiens with 9 samples.

Results

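The ErbB ligand and receptor mRNAs were compared among 3 pancreatic cancer sublines (S2-007, S2-020, S2-028), with emphasis on S2-020 and on which ligand mRNA was most abundant in each line. The members were the 10 rows of the count table whose gene symbol was AREG, BTC, EREG, EPGN, HBEGF, TGFA, NRG1, NRG2, EGFR or ERBB3, of 42717 genes in all. They comprised 6 genes for EGFR ligands, 2 neuregulin genes and 2 receptor genes. The rule names the genes and uses no measured value, although it was written with earlier results of these data known. All 10 passed the filter on low counts in each comparison. The 3 sublines descend from SUIT-2, an established line of human pancreatic ductal adenocarcinoma (PDAC), and all were unmodified cells grown in DMEM with 10% inactivated fetal bovine serum. As background, the maspin protein lies in the nucleus and the cytoplasm of S2-007 cells and in the cytoplasm of S2-028 cells, and is weak in S2-020 cells. Each line was sequenced as 3 strand-specific mRNA libraries, 9 in all. Each line is a single subline, so a difference between lines cannot be told apart from a difference between individual derivatives of SUIT-2. Nothing in the labels says that the libraries of a line came from separate cultures, so the p-values measure the spread between these libraries, which may be technical.

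ErbB receptors are a family of receptor tyrosine kinases, EGFR, ERBB2, ERBB3 and ERBB4, that signal as pairs. Their ligands are made as membrane-anchored precursors and are released by proteases. Amphiregulin (AREG), epiregulin (EREG), epigen (EPGN), transforming growth factor alpha (TGFA), betacellulin (BTC) and heparin-binding EGF-like growth factor (HBEGF) bind EGFR, and epiregulin, betacellulin and HB-EGF also bind ERBB4. The neuregulins NRG1 and NRG2 bind ERBB3 and ERBB4. ERBB3 has little kinase activity of its own and signals through its partners, mainly to PI3K and Akt, and ERBB2 has no known ligand. Pancreatic ductal tumours depend widely on RAS, which acts downstream of these receptors.

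The total count per library lay between 60328748 and 86253923, and a count of 3, taken as the floor, corresponded to a normalized CPM (counts scaled to library size, here by the TMM method) of 0.05 or less. All 6 ductal epithelial markers that were examined (KRT7, KRT8, KRT18, KRT19, EPCAM and CDH1) were detected in every line. Their summed CPM was lower in S2-020 (4308 to 5426) than in S2-007 (9539 to 10073) and S2-028 (15156 to 17763). Against S2-007, 5 of the 6 were called lower in S2-020, and against S2-020 all 6 were called higher in S2-028. The share of all genes tested that was called in that direction was 12.1% in each case. CDH1 had 4.54 ± 0.271 CPM (SD, n = 3 libraries) in S2-020, 54.2 ± 2.43 in S2-007 and 112 ± 7.16 in S2-028. EGFR, ERBB3, AREG, TGFA and HBEGF were also lowest in S2-020, whereas EREG, BTC, NRG1 and NRG2 were not, and the part of the marker difference in these results was not tested. Markers of acinar and islet cells summed to at most 1.35 CPM, and those of fibroblasts, endothelium and blood to at most 12.9 CPM, in any library. PRSS1 was at or under 3 counts in S2-007 and S2-020, GCG in S2-020 and COL1A2 in S2-028. In RNA from whole cultures, fewer cells that express a gene and less RNA per cell cannot be told apart.

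The 250 bases before the annotated start of EREG, AREG, TGFA and EGFR are shown because these are the most abundant ligand genes of the 3 lines and their receptor. They are given from RefSeq on GRCh38.p14, 5' to 3' on the strand of the gene. EREG is at chr4:74364895-74365144 (plus strand), AREG at chr4:74444886-74445135 (plus strand), TGFA at chr2:70553827-70554076 (minus strand) and EGFR at chr7:55018767-55019016 (plus strand). Capitals mark matches, on either strand, to 5 motifs, which were the AP-1 motif TGANTCA, the cyclic AMP response element (CRE) TGACGTCA, the GC box GGGCGG, the TATA box TATAAA and the TEAD motif GGAATG.
EREG: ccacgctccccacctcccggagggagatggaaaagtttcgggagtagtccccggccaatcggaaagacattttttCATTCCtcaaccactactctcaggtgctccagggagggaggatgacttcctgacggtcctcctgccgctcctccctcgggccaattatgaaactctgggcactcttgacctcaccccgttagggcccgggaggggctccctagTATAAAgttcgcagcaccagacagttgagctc
AREG: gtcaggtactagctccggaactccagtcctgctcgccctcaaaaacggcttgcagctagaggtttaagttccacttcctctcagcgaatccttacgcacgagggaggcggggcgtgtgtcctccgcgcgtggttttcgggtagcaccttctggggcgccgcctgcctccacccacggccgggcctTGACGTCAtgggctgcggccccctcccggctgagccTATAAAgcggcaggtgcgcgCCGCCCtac
TGFA: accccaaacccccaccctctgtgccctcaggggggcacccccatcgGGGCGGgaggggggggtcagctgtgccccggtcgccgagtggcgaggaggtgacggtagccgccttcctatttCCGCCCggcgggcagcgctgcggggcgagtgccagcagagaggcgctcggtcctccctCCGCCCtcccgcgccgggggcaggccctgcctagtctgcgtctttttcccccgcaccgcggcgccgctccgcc
EGFR: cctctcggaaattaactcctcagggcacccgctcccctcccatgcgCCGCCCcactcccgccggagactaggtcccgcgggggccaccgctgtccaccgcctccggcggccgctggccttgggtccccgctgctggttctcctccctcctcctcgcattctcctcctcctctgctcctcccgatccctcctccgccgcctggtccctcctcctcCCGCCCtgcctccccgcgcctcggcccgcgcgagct
EREG had a TATA box from position -32 to -27 before the start and a TEAD motif on the opposite strand from -175 to -170. AREG had a TATA box from -29 to -24, a CRE from -65 to -58 and 1 GC box. TGFA had 3 GC boxes and EGFR had 2. These letters occur widely, in 10.7% of 35116 promoter windows of the same length for the TATA box, 1.65% for the CRE, 42.6% for the GC box, 11.9% for the TEAD motif and 6.57% for the AP-1 motif. No AP-1 motif was in these 4 windows. The AREG and EREG windows thus shared a TATA box, which the TGFA and EGFR windows lacked. The GC box was in the AREG, TGFA and EGFR windows. A match of letters is a description and not a binding site.

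Per kilobase of transcript, the leading ligand mRNA was a different gene in each line, with a wide lead only in S2-020. To compare genes with each other, counts were normalized and divided by the length of the transcript in kilobases. In S2-007, TGFA had the highest level, at 64.9 ± 4.16 CPM per kilobase (SD, n = 3), with EREG at 55.5 ± 5.27 and AREG at 47.1 ± 7.05. The TGFA libraries (61.8, 63.3 and 69.6) lay above the EREG libraries (50.9, 54.3 and 61.2), and the ranges of EREG and AREG overlapped. In S2-020, EREG had 74.3 ± 8.06 CPM per kilobase, which was 3.69 times the level of AREG (20.1 ± 1.52), and TGFA followed at 12.3 ± 0.671. In S2-028, AREG had 173 ± 5.16 CPM per kilobase and EREG 158 ± 2.55, a ratio of 1.09, with every AREG library above every EREG library, and TGFA was at 63.8 ± 4.82. The remaining ligand members lay far lower in all lines, from 0.278 CPM per kilobase for NRG1 in S2-007 to 8.76 for BTC in S2-028.

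In shares of the summed per-kilobase level of the 8 ligand members, TGFA made up 37.7% ± 1.34 of S2-007 (SD, n = 3), 10.9% ± 1.44 of S2-020 and 15.5% ± 0.795 of S2-028. EREG made up 32.1% ± 0.175, 65.0% ± 2.37 and 38.5% ± 1.29 in the same order. AREG made up 27.2% ± 1.64, 17.6% ± 0.340 and 42.1% ± 0.549. So S2-020 had the highest share of EREG and the lowest of TGFA and AREG, with no overlap between the lines for any of these ligands. Over all assignments of the 9 libraries to 3 lines, the exact permutation test of the difference among lines gave p = 0.00357 for each of these shares, the smallest value it can give, and 0.00561 after Benjamini-Hochberg adjustment over 11 shares and ratios. The shares of a library sum to a whole and are not independent of each other. Among the minor ligands, BTC had a share of 0.741% ± 0.0837 in S2-007, 2.13% ± 0.238 in S2-020 and 2.13% ± 0.177 in S2-028 (exact permutation p = 0.0357, adjusted p = 0.0393). The share of HBEGF, between 1.06% and 1.58% on average, did not pass the test (exact permutation p = 0.1, adjusted p = 0.1). NRG2 made up 1.95% ± 0.323 of the ligand sum in S2-020, 0.376% ± 0.0614 in S2-007 and 0.310% ± 0.0185 in S2-028 (exact permutation p = 0.00714, adjusted p = 0.00982). The order within S2-028 depended on division by length and on the length used. Without division, EREG led there with 58.1% and AREG had 17.0%, since the EREG transcript (4615 bases) is longer than that of AREG (1234 bases). TGFA remained first in S2-007 and EREG in S2-020. In S2-007, however, the CPM ranges of TGFA (254 to 287) and EREG (235 to 283) overlapped.

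**Figure D1:**
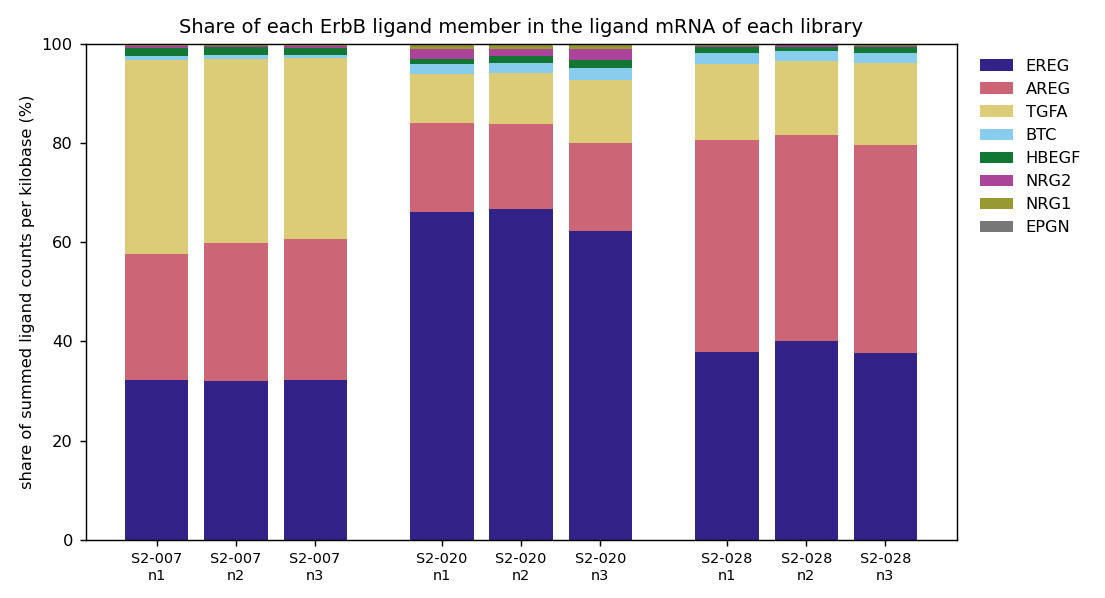
Share of each of the 8 ligand members (stacked bars, in percent) in their summed normalized CPM per kilobase, for each of the 9 libraries. EREG takes 62.3% to 66.7% of the sum in the S2-020 libraries, TGFA 36.6% to 39.2% in S2-007 and AREG 41.7% to 42.7% in S2-028.

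The log2 ratio of AREG to EREG per kilobase was -0.24 ± 0.093 (SD, n = 3) in S2-007, -1.88 ± 0.071 in S2-020 and 0.13 ± 0.062 in S2-028, and the lines did not overlap (exact permutation p = 0.00357, adjusted p = 0.00561). The summed level of the ligand members was 173 ± 16.4 CPM per kilobase in S2-007, 114 ± 8.59 in S2-020 and 411 ± 9.98 in S2-028. S2-020 therefore had the lowest ligand sum of the 3 lines together with the highest share of EREG. The neuregulin sum went another way, with 0.932 ± 0.152 CPM per kilobase in S2-007, 3.05 ± 0.408 in S2-020 and 2.29 ± 0.183 in S2-028. The separation of S2-020 from S2-028 depended on division by length, as the NRG1 transcript (11983 bases) is longer than that of NRG2 (3919 bases). In CPM the neuregulin sums of S2-020 and S2-028 overlapped. The log2 ratio of EGFR ligands to neuregulins was 5.19 ± 0.24 in S2-020, against 7.53 ± 0.17 in S2-007 and 7.48 ± 0.10 in S2-028.

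The comparison of S2-020 with S2-007 set the subline with weak maspin protein against the one that carries it in the nucleus and the cytoplasm. In S2-020, both neuregulins and BTC were higher, and AREG, HBEGF, TGFA and both receptors were lower. DEGs (differentially expressed genes) were those with a fold change of at least 1.5 whose p in edgeR's quasi-likelihood test, after Benjamini-Hochberg adjustment, was under 0.05. Of the 10 members, 8 were called, 3 higher and 5 lower in S2-020. Over the 26657 genes tested, 21.6% were called, 9.57% higher and 12.1% lower. For 9 of the 10 members no library of either line fell within the range of the other, as for 48.5% of the genes tested. The median log2 fold change was -0.52 over the members and -0.053 over all genes tested. The 3 comparisons of this report share libraries and are not independent of each other, so each is given by its own values.

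Among the EGFR ligands, TGFA, a high-affinity ligand of EGFR, differed most between S2-020 and S2-007. It had 49.7, 48.8 and 54.0 CPM in the S2-020 libraries, 254, 261 and 287 in S2-007, and 259, 245 and 284 in S2-028. The S2-020 libraries lay far below all others, and the libraries of the other lines overlapped. TGFA was 5.37-fold lower in S2-020 than in S2-007 (log2 fold change -2.43, standard error 0.0594, adjusted p = 3.06e-17) and 5.18-fold higher in S2-028 than in S2-020 (log2 fold change 2.37, standard error 0.0643, adjusted p = 3.39e-16). For S2-028 against S2-007 it stood at -0.02 on the log2 scale (standard error 0.0644, adjusted p = 0.871) and its sign turned without S2-007 library 3 (0.021) or S2-028 library 2 (0.024).

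AREG, a lower-affinity ligand, had 26.7, 24.9 and 22.9 CPM in S2-020, 49.3, 58.5 and 66.7 in S2-007, and 216, 206 and 218 in S2-028. Every S2-020 library lay below the other 6, and S2-028 lay above both other lines. AREG was 2.39-fold lower in S2-020 than in S2-007 (log2 fold change -1.26, standard error 0.0882, adjusted p = 3.76e-10) and 8.61-fold higher in S2-028 than in S2-020 (log2 fold change 3.11, standard error 0.0646, adjusted p = 7.73e-18). EREG, whose gene lies next to AREG, had 369, 359.6 and 300.4 CPM in S2-020, 235, 251 and 283 in S2-007, and 717, 741 and 732 in S2-028. S2-020 lay between the other lines, without overlap. Against S2-007 it was at 0.39 on the log2 scale (standard error 0.0711, adjusted p = 0.000132), which is under the fold threshold of a DEG, and S2-028 was 2.13-fold higher than S2-020 (log2 fold change 1.09, standard error 0.0622, adjusted p = 2.50e-11).

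BTC, which binds both EGFR and ERBB4, had 6.29, 6.26 and 6.65 CPM in S2-020, 3.45, 3.36 and 3.31 in S2-007, and 25.3, 21.0 and 23.4 in S2-028. It was higher in S2-020 than in S2-007 (log2 fold change 0.89, standard error 0.145, adjusted p = 3.76e-05) and higher again in S2-028 than in S2-020 (1.86, standard error 0.105, adjusted p = 2.09e-11), and no line overlapped another. HBEGF, whose precursor is also the receptor of diphtheria toxin, had 2.92, 3.92 and 4.03 CPM in S2-020, 6.32, 6.51 and 6.30 in S2-007, and 10.2, 8.42 and 12.1 in S2-028. It was lower in S2-020 than in S2-007 (log2 fold change -0.85, standard error 0.156, adjusted p = 0.000158) and 2.83-fold higher in S2-028 than in S2-020 (standard error of the log2 value 0.163, adjusted p = 2.87e-07). EPGN was scarce throughout, with 44 to 74 counts in a library and 0.654 to 1.00 CPM over all 9, and all lines overlapped. It was not called in any comparison (adjusted p = 0.694, 0.957 and 0.837), and its standard errors on the log2 scale were between 0.318 and 0.334.

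Both neuregulins were higher in S2-020 than in S2-007. NRG1 had 10.5, 8.94 and 10.5 CPM in S2-020, 3.70, 3.13 and 3.16 in S2-007, and 13.4, 10.5 and 12.8 in S2-028. Its libraries in S2-020 and S2-028 lay above all S2-007 libraries and overlapped with each other. NRG1 was 2.94-fold higher in S2-020 than in S2-007 (log2 fold change 1.55, standard error 0.139, adjusted p = 1.42e-08), and for S2-028 against S2-020 it was at 0.29 on the log2 scale (standard error 0.122, adjusted p = 0.0685). NRG2 had 9.84, 7.26 and 8.98 CPM in S2-020, 2.34, 2.10 and 3.26 in S2-007, and 5.32, 4.82 and 4.85 in S2-028. It was highest in S2-020, with no overlap between lines, at 3.32-fold the level of S2-007 (log2 fold change 1.73, standard error 0.174, adjusted p = 7.80e-08), and it was the only member called lower in S2-028 than in S2-020 (-0.80, standard error 0.144, adjusted p = 0.000134). Of the exon bases of NRG2, 5.97% lie under another gene, and how the authors counted reads there is not given in the sources used here.

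The receptors were lower in S2-020. ERBB3, the receptor of the neuregulins that acts mainly through partners, had 6.68, 5.70 and 5.49 CPM in S2-020, 71.4, 67.9 and 54.2 in S2-007, and 109.6, 109.5 and 96.8 in S2-028. Every S2-020 library was below all 6 others, 11.1-fold lower than S2-007 (log2 fold change -3.47, standard error 0.109, adjusted p = 1.33e-15), and S2-028 was 17.7-fold higher than S2-020 (4.15, standard error 0.0867, adjusted p = 8.33e-18). EGFR had 407, 383 and 372 CPM in S2-020, 771, 791 and 791 in S2-007, and 2256, 2050.2 and 2132 in S2-028. EGFR was 2.07-fold lower in S2-020 than in S2-007 (log2 fold change -1.05, standard error 0.0483, adjusted p = 5.50e-13) and 5.54-fold higher in S2-028 than in S2-020 (2.47, standard error 0.0501, adjusted p = 5.68e-18). The same line held the lowest level of both receptors. The line with the highest NRG2 level thus had the lowest ERBB3 level.

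**Figure D2:**
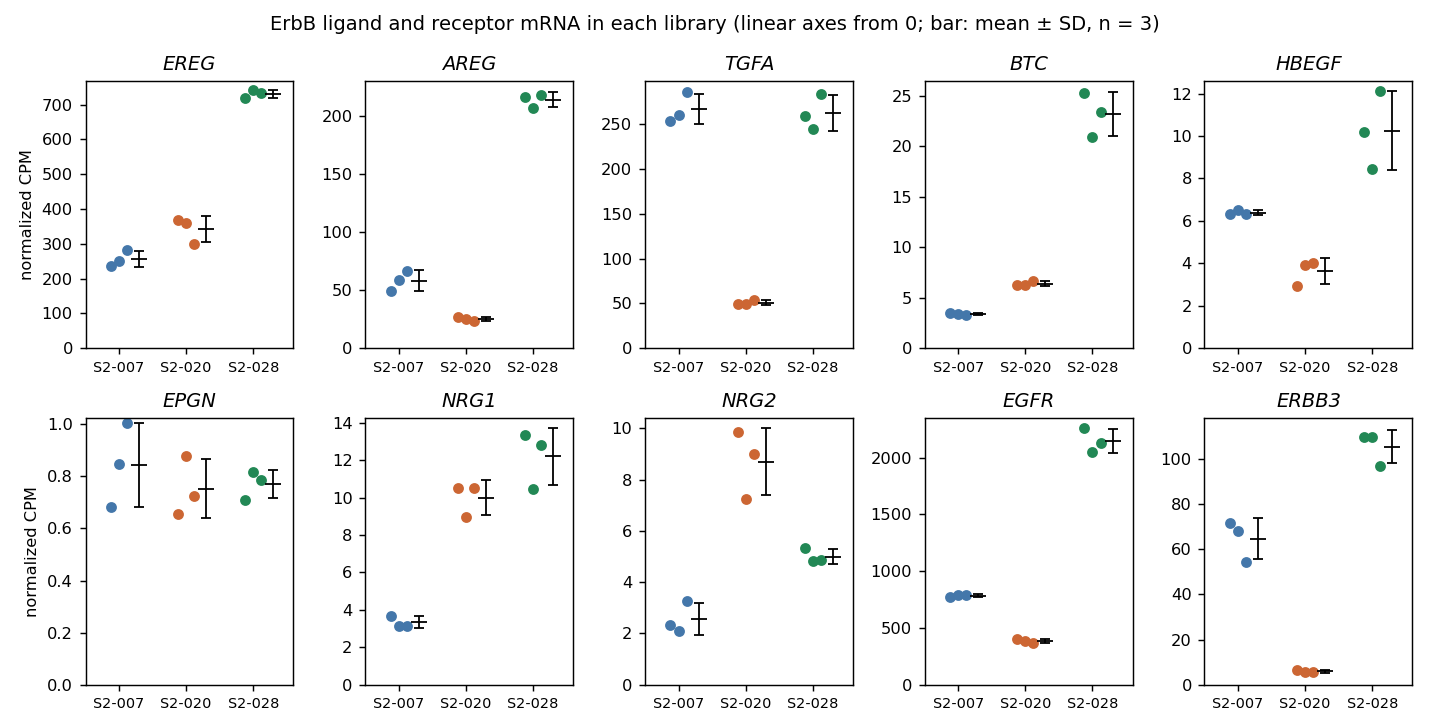
Normalized CPM (linear axes from 0) of the 10 members in the 3 libraries of each line, with bars for the mean ± SD (n = 3). TGFA and ERBB3 are lowest in S2-020, NRG2 is highest there, and EREG, AREG and EGFR are highest in S2-028.

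In CPM per kilobase, EGFR was the most abundant of the 4 ErbB receptors in every line, with 79.2 ± 1.19 (SD, n = 3) in S2-007, 39.1 ± 1.82 in S2-020 and 217 ± 10.5 in S2-028. It made up 65.6% ± 2.12, 72.6% ± 0.784 and 80.3% ± 1.35 of the summed level of the 4 receptors. ERBB3 made up 9.50% ± 1.15, 1.97% ± 0.122 and 6.95% ± 0.453 in the same order. The log2 ratio of EGFR to ERBB3 was therefore highest in S2-020, at 5.21 ± 0.085, against 2.79 ± 0.23 in S2-007 and 3.53 ± 0.12 in S2-028 (exact permutation p = 0.00357, adjusted p = 0.00561). ERBB2, the partner without a ligand, made up 24.8% ± 0.984 in S2-007, 25.2% ± 0.867 in S2-020 and 12.7% ± 0.890 in S2-028, and the ranges of S2-007 and S2-020 overlapped. ERBB4 was at 0.216% or less of the sum.

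**Figure D3:**
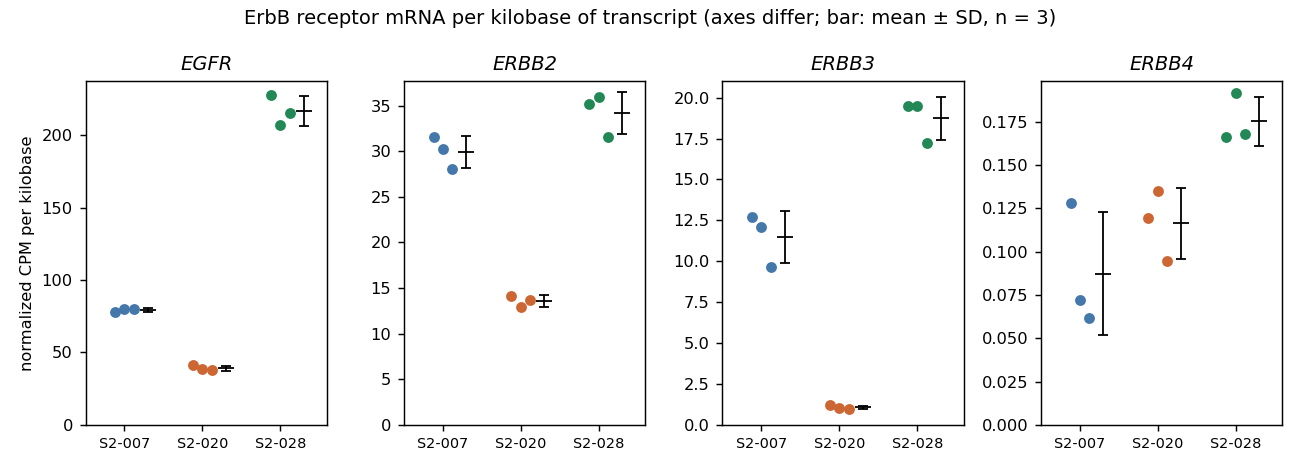
Normalized CPM per kilobase of the 4 ErbB receptors in the 3 libraries of each line (separate axes from 0), with bars for the mean ± SD (n = 3). EGFR, ERBB2 and ERBB3 are lowest in S2-020, where ERBB3 lies between 0.978 and 1.19 CPM per kilobase.

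Of the other 5 family genes, ERBB2 and NRG4 were called lower in S2-020 than in S2-007, and EGF, NRG3 and ERBB4 were not called. ERBB2 had 61.8 ± 2.86 CPM in S2-020, 136 ± 8.00 in S2-007 and 156 ± 10.6 in S2-028. On the log2 scale it was at -1.18 in S2-020 against S2-007 and at 1.34 in S2-028 against S2-020. NRG4, another ERBB4 ligand, had 1.32 ± 0.397 CPM in S2-020 and 5.33 ± 0.548 in S2-007 (log2 fold change -2.04), but 49.1% of its exon bases lie under FBXO22 and its counts may hold reads of that gene. In S2-028 against S2-020, EGF (1.51), ERBB2 and NRG3 (1.37) were called higher. EGF itself was scarce, with means between 0.773 and 2.19 CPM.

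In S2-028 against S2-020, 8 of the 10 members were called, 7 higher and 1 lower, beside 22.2% of the 26031 genes tested (12.1% higher and 10.1% lower). The members called higher were AREG, BTC, EREG, HBEGF, TGFA, EGFR and ERBB3, and their log2 fold changes lay between 1.09 and 4.15. For 8 members the libraries did not overlap, as for 48.9% of the genes tested. In S2-028 against S2-007, 8 members were called, all higher in S2-028, beside 18.4% of the genes tested (10.2% higher and 8.19% lower), and TGFA and EPGN were not called. For 8 members the libraries did not overlap in that comparison, as for 43.3% of the genes tested. Log2 fold changes of the called members there lay between 0.69 for HBEGF and 2.79 for BTC. Without S2-028 library 3, HBEGF was at 0.55 and was not called, which left 7 members. Median log2 fold changes over the members were 1.68 and 1.21 in these comparisons, and 0.025 and 0.0020 over all genes tested.

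**Figure D4:**
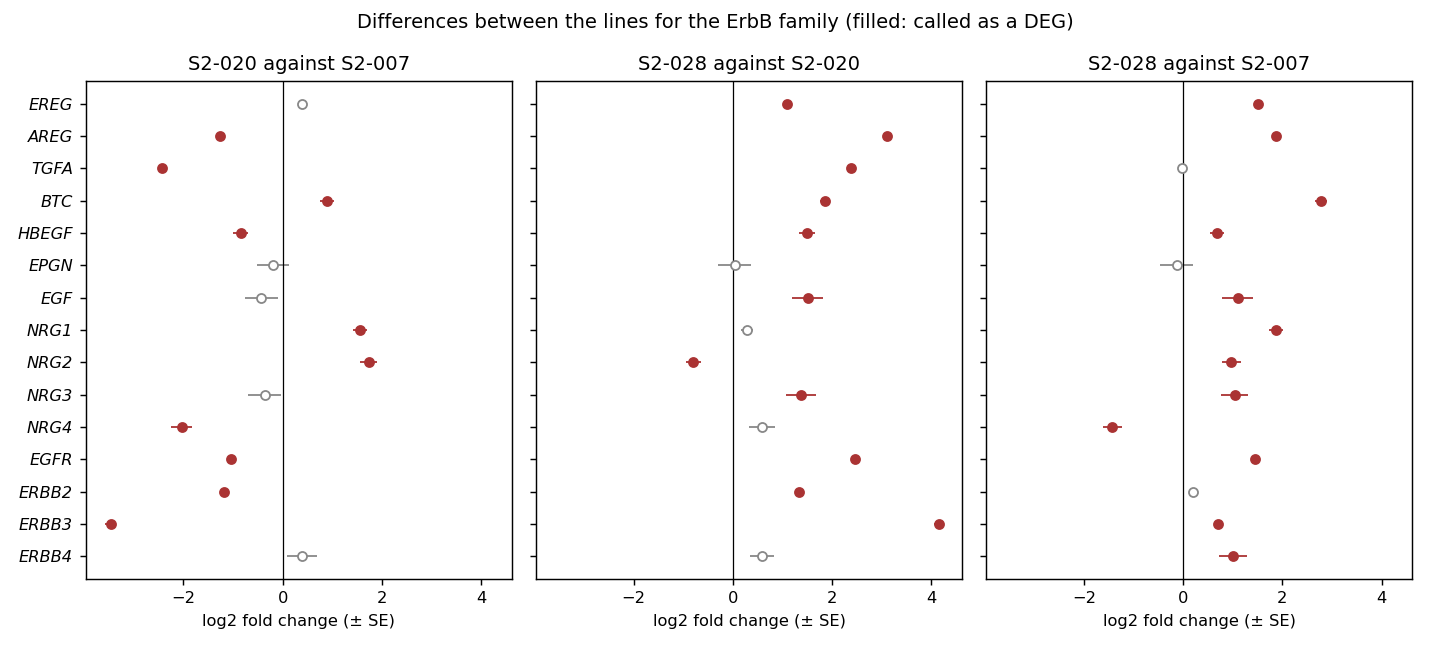
Log2 fold change (horizontal axis, bars: standard error) of the 10 members and the 5 other ErbB family genes in the 3 comparisons. Filled points were called as DEGs. TGFA is at -2.43 in S2-020 and at -0.02 in S2-028 against S2-007, and NRG1 and NRG2 are above 0 in both.

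EPGN, EREG, AREG and BTC are neighbours on chromosome 4. In GRCh38.p14 they run from 74308470 (EPGN) through 74365145 (EREG) and 74445136 (AREG) to 74794523 (the end of BTC). The values of EREG, AREG and BTC differed from line to line, whereas EPGN was not called in any comparison. In S2-020 against S2-007, AREG was lower at -1.26, BTC was higher at 0.89, EREG was at 0.39 and EPGN at -0.19. Of the 5 protein-coding genes on each side, 9 were tested, of which PARM1 was called higher in S2-020 (log2 fold change 1.70) and the chemokine genes CXCL5 (-3.89), CXCL3 (-1.74) and CXCL2 (-1.63) were called lower. CXCL5 had 0.289 ± 0.0642 CPM in S2-020 and 4.20 ± 1.13 in S2-007, whereas CXCL3 and CXCL2 averaged at most 0.629 CPM in any line. PARM1, next to BTC, was called higher in all 3 comparisons (1.70, 1.30 and 3.04), as was BTC (0.89, 1.86 and 2.79). MTHFD2L, RCHY1, THAP6, ODAPH and CDKL2 were not called in any of them.

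**Figure D5:**
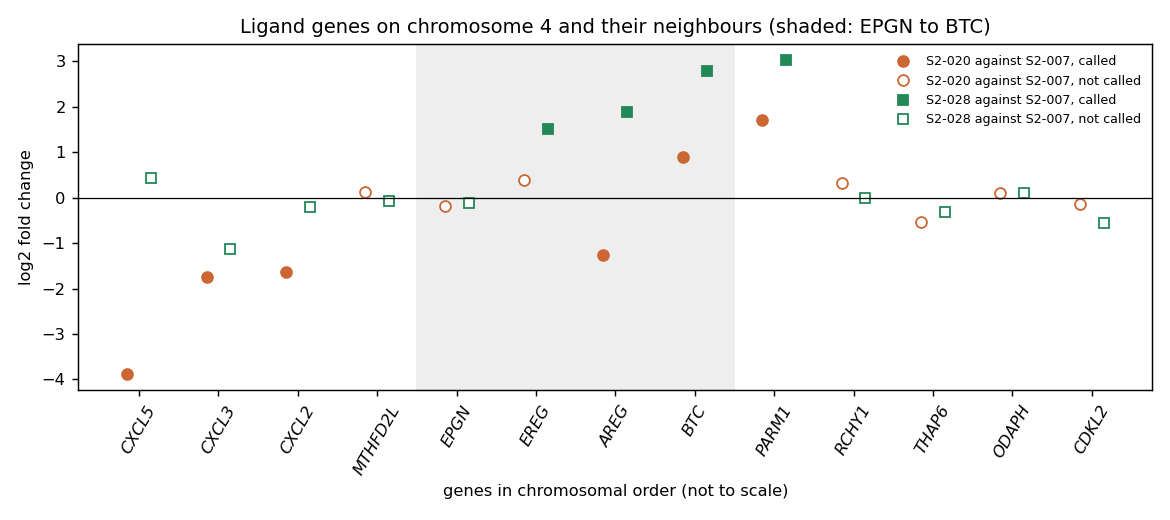
Log2 fold change (vertical axis) of EPGN, EREG, AREG and BTC (shaded) and of 9 neighbouring genes in their chromosomal order, for S2-020 and S2-028 against S2-007. BTC and PARM1 are called higher in both comparisons, whereas AREG is at -1.26 in S2-020 and at 1.88 in S2-028.

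The wider surroundings were described by the 50 tested genes nearest to each member. Around ERBB3, on chromosome 12, the median log2 fold change of these neighbours in S2-020 against S2-007 was 0.49, with 20 called higher and 4 lower, while ERBB3 was at -3.47. Around EGFR the median was -0.30, with 0 neighbours called higher and 6 lower, while EGFR was at -1.05. Around TGFA it was -0.28, with 4 called higher and 7 lower, and around AREG -0.30, with 3 called higher and 12 lower. Over all genes tested in this comparison, 9.57% were called higher and 12.1% lower, and the median was -0.053. The 6 of 50 called lower around EGFR and the counts around TGFA were near these shares, whereas the 0 of 50 called higher around EGFR was below its share. The medians around ERBB3, EGFR, TGFA and AREG were smaller in size than the values of these members. Around EPGN the median was larger in size, at -0.33 beside -0.19 for EPGN.

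By the pattern over the 9 libraries (3 lines), the genes most like EGFR, among those whose log2 CPM averaged 3 or more, by Pearson's r of log2 CPM were USP18 and RAI1 (both 0.998) and AREG (0.997). Those most like TGFA were PYGL (0.999), FAM83H (0.999) and RHOD (0.998). Those most like EREG were SPECC1 and SUPT4H1 (both 0.997) and ARSJ (0.993). AREG was most like EGFR, USP18 and RAI1. These values rest on 3 lines and are a description only, and 83 of the 10523 genes compared had an r of at least 0.98 with EGFR, 154 with TGFA, 54 with EREG and 80 with AREG. FAM83H had 62.3 CPM in S2-020 and 318 and 289 in S2-007 and S2-028, and RHOD, a small GTPase, 17.8 against 83.6 and 88.6.

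Genes that act before and after the receptors were counted in lists chosen by name. Of 7 genes of ligand shedding, RHBDF1 and RHBDL2 were called lower in S2-020 than in S2-007 and TIMP3 higher. Among all genes tested there, 12.1% were called lower and 9.57% higher. RHBDF1, which brings the sheddase ADAM17 to the cell surface, had 22.9 ± 1.96 CPM in S2-020 and 94.5 ± 3.99 in S2-007 (log2 fold change -2.08, adjusted p = 3.27e-15), and 33.0 ± 2.49 in S2-028. RHBDL2, a rhomboid protease, had 3.02 ± 0.600 against 8.91 ± 0.645 (-1.59, adjusted p = 5.47e-08). TIMP3, an inhibitor of ADAM17 among other proteases, had 2.01 ± 0.272 against 0.481 ± 0.243 (2.03, standard error 0.319, adjusted p = 2.59e-05), and 78.5 ± 14.2 in S2-028. Its S2-007 libraries held only 24 to 56 counts, so its fold change against that line is imprecise. ADAM17 itself, singled out after its values were seen, was not called in S2-020 against S2-007 (-0.22) and was called higher in S2-028 against both other lines (0.87 and 0.68). RHBDF2, of the same list and also named after its values were seen, had 30.7 CPM in S2-020 and 28.5 in S2-007 (0.075, not called). It was called higher in S2-028 against both other lines (0.60 and 0.71). In S2-028 against S2-020, 4 of the 7 were called higher, beside 12.1% of all genes tested. In S2-028 against S2-007, 3 were called higher and 1 lower, beside 10.2% and 8.19% of all genes tested. The median of the list in S2-020 against S2-007 was 0.0025, beside -0.053 over all genes.

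Of 12 genes listed for receptor restraint and turnover, 6 were called higher and 2 lower in S2-020 than in S2-007. Of all genes tested, 9.57% and 12.1% were. In which direction each listed gene acts on the receptors in these cells was not tested. LRIG1, a membrane protein that binds ErbB receptors and promotes their degradation, had 31.0 ± 2.62 CPM in S2-020, 1.24 ± 0.151 in S2-007 and 2.94 ± 0.484 in S2-028. It was 24.5-fold higher in S2-020 than in S2-007 (log2 fold change 4.61, standard error 0.121, adjusted p = 9.01e-17), and S2-028 was 10.5-fold lower than S2-020 (-3.39). LRIG3, a related gene, was also higher in S2-020 than in S2-007 (1.35), at 21.7 ± 1.37 CPM against 8.36 ± 0.965, with 18.7 ± 1.58 in S2-028. SOCS5, which promotes degradation of EGFR, had 62.9 ± 0.646 against 22.2 ± 2.88 (1.47), with 30.6 ± 2.19 in S2-028. UBASH3B, a phosphatase that binds CBL, had 401 ± 5.89 against 239 ± 11.4 (0.71), with 437 ± 17.0 in S2-028. LRIG3 and UBASH3B were not called in S2-028 against S2-020 and were called higher in S2-028 than in S2-007 (1.17 and 0.87). The genes called lower, named after their values were seen, were CBLB and CBLC, ubiquitin ligases of the CBL family. CBLB had 2.26 ± 0.329 CPM in S2-020 against 5.30 ± 0.325 in S2-007 (log2 fold change -1.26, adjusted p = 4.71e-06). CBLC had 0 to 12 counts in the S2-020 libraries and 179 to 224 in S2-007 (adjusted p = 5.40e-08), and no fold is given because its value rests on these few counts. In S2-028 against S2-020, 2 of the 12 were called higher and 2 lower, beside 12.1% and 10.1% of all genes tested. In S2-028 against S2-007, 7 were called higher, beside 10.2% of all genes tested. The median of the list in S2-020 against S2-007 was 0.58, beside -0.053 over all genes.

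In the PI3K and Akt arm, PIK3CD (log2 fold change 1.90) and AKT2 (0.64) were called higher in S2-020 than in S2-007, and PDPK1 was called lower (-0.70). PIK3CD, a catalytic subunit of PI3K best known from leukocytes, had 43.9 ± 7.66 CPM in S2-020, 11.5 ± 1.09 in S2-007 and 10.5 ± 0.194 in S2-028, and it was called lower in S2-028 than in S2-020 (-2.06). AKT2, a kinase of the Akt family, had 124 ± 3.09 CPM in S2-020, 77.9 ± 5.75 in S2-007 and 122 ± 4.49 in S2-028. It was not called in S2-028 against S2-020 (-0.025) and was called higher in S2-028 than in S2-007 (0.65). AKT1, of the same family, had 201 ± 2.61 against 248 ± 12.5, a log2 fold change of -0.34 that is under the fold threshold. PDPK1, which phosphorylates Akt, had 69.5 ± 3.66 against 110.8 ± 4.00.

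Of 8 receptor adaptor genes, edgeR's quasi-likelihood test called 0 as DEGs in S2-020 against S2-007, as did its likelihood ratio test and DESeq2. All 8 had an unadjusted p under 0.05 in each test. The adjusted p was under 0.05 for all 8 in both edgeR tests and for 7 in DESeq2. In the quasi-likelihood test, the log2 fold changes of the 8 genes lay between -0.35 and 0.47, under the fold threshold. Over all genes tested, 21.6% were called. In S2-028 against S2-020, 2 were called higher and 2 lower, beside 12.1% and 10.1% of all genes tested. In S2-028 against S2-007, 2 were called higher and 1 lower, beside 10.2% and 8.19%.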

How the data were processed

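RNA of 3 libraries per line was sequenced on an Illumina instrument from strand-specific mRNA libraries. Per the labels, the authors used Trimmomatic 0.39, BWA 0.7.17, SAMtools 1.12 and edgeR 3.16.5 with GRCh38.p14, and they deposited raw counts of mapped reads for each gene, which are whole numbers. The treatment of strand and of reads with several matches is not given in the sources used here. BWA does not join reads across introns, which can lose junction reads. A further 18 per-library columns of normalized values and the lines that name no gene were not used. Genes passing filterByExpr (minimum count 10, minimum total 15) were normalized by TMM and tested in R 4.3.3 with the quasi-likelihood F-test of edgeR 4.0.16, with the 6 libraries of the lines compared. This procedure was tested on simulated data. Printed CPM use TMM factors of all 9 libraries. Levels per kilobase use the MANE Select transcript of GENCODE v44, since the planned RefSeq exon lengths were not used here. Shares and ratios were compared by exact permutation over 1680 assignments, two-sided by construction. Alternatives were other normalizations, filters, tests, transcript lengths, a replicate block and leaving out each library. Of the gene identifiers, 42539 matched RefSeq.

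The members and the gene lists were chosen with earlier results of these data known. Named were all members, the other family genes, at most 4 called genes per list with the smallest adjusted p in S2-020 against S2-007, AKT1 and AKT2, the 3 genes most like EGFR and each leading ligand, and 5 neighbours on each side of the chromosome 4 ligand genes. The depth, 60328748 to 86253923 counts per library, leaves genes under about 100 counts imprecise, and floors cover counting error only. Some results of the listed genes, and counts that include them, are left out here.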

Additional observations from a re-analysis of the deposited data

How the results depend on the processing

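With each alternative normalization, filter, test and left-out library, 8 members were called in S2-020 against S2-007 and in S2-028 against S2-020. In S2-028 against S2-007 the number was between 7 and 8 with each library left out. Leading ligand shares moved with the transcript length used. With the union of all exons (1642 bases for AREG and 5713 for EREG), TGFA had 39.2% in S2-007 and AREG 40.0% in S2-028. The lead of AREG over EREG in S2-028 was then narrow, and in library 2 EREG lay above AREG. With counts not divided by length, TGFA had 44.7% in S2-007, EREG 76.4% in S2-020 and AREG 17.0% in S2-028, where EREG then led. With each library left out, these shares lay between 36.9% and 38.2% for TGFA, 64.2% and 66.4% for EREG, and 41.8% and 42.4% for AREG. The sign reversed for values near 0. With each library left out, EPGN lay between -0.061 (without S2-020 library 1) and 0.16 in S2-028 against S2-020, and between -0.25 and 0.0029 (without S2-007 library 3) in S2-028 against S2-007. TGFA in S2-028 against S2-007 lay between -0.079 and 0.024, and was above 0 without S2-007 library 3 (0.021) and without S2-028 library 2 (0.024). HBEGF (0.55, without S2-028 library 3) and EGF (adjusted p = 0.0542 without S2-007 library 3 and 0.128 without S2-028 library 2) lost their calls in S2-028 against S2-007. ERBB4 (likelihood ratio test) and NRG4 (without S2-020 library 2) gained a call in S2-028 against S2-020. Of the values recomputed, 757 kept their direction and call or stayed within the spread between libraries.

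Libraries with the same number in different lines had correlations of their deviations between -0.0312 and 0.230. Those with different numbers lay between -0.230 and 0.199. With 3 libraries per line, these values cannot show whether equal numbers mark samples that were handled together. With the replicate block, 8 members were called in each comparison, and 5650, 5716 and 4866 genes in all, beside 5769, 5788 and 4858 without it. EPGN, with 44 to 74 counts, and EGF and NRG3 are limited by depth.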
